A study of Mus musculus with 2 samples.

Results

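The genes described here are 32 mouse genes known to be imprinted, read in the heart of the embryo. They were taken by symbol from GENCODE release M21, which annotates 55536 genes, and are grouped by imprinted cluster with paternally and maternally expressed genes apart. The 32 genes lie in 14 clusters on 10 chromosomes, 9 of the clusters being represented by 1 gene. There are 27 protein-coding and 5 non-coding genes. Of the genes, 20 are known to be expressed from the paternal allele and 10 from the maternal allele. Gnas depends on the promoter and Ube3a on the tissue. Other genes of the list may also be imprinted in some tissues only. The grouping therefore does not state which allele the heart used.

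The study has 1 group, hearts of mouse embryos at 12.5 days of development, strain B6NCrl, with males and females pooled. Its 2 libraries are biological replicates from separate biosamples under 1 donor identifier, so error here is the spread between 2 pools. Each was made by oligo-dT priming from 10 ng of RNA with Nextera tagmentation, and ERCC spike-ins (synthetic RNAs) were added at 1000 times a single-cell amount. No genotype, treatment or stage was contrasted, and the strain is inbred, so the tables hold no information on which allele a read came from.

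Genomic imprinting is the expression of a gene from the allele of 1 parent only, set by DNA methylation that differs between egg and sperm. Imprinted genes sit in clusters, each under an imprinting control region, and a long non-coding RNA in the cluster often silences neighbouring genes in cis. Many act on growth of the fetus and placenta. In general terms, paternally expressed genes tend to promote growth and maternally expressed genes to restrain it. Parent of origin is given below as background from the literature on mouse and was not measured.

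Replicate 1 had 35520161 expected counts (estimated reads) and replicate 2 had 32577548. Annotated genes took 34248993 of them in replicate 1, and in replicate 2 they took 31394912. ERCC spike-ins took 3.58% in replicate 1 and 3.63% in replicate 2. All 8 heart muscle markers were detected, with a median of 4279 ± 16.1 TPM (TPM is a transcript's level per length, scaled to a fixed total; mean ± SD, n = 2). Of 6 trophoblast markers, which were examined because several imprinted genes are known from placenta, Tpbpa, Prl3d1 and Psg17 were at 0 in both libraries and Hand1, which the heart also expresses, was the 1 detected. The hepatocyte markers Afp, Apoa2 and Apoa1 led a list that summed to 173 TPM in replicate 1, against 37.7 TPM in replicate 2. Actc1, Myl2 and Myh7 were the highest of heart muscle, Hbb-y, Hba-a1 and Hba-x of red cells, Col3a1, Col1a1 and Postn of mesenchyme, and Pecam1, Tek and Cdh5 of endothelium. Of 8 neural markers 4 were detected, led by Tubb3, Map2 and Elavl4, and of 6 skeletal muscle markers Acta1, which the embryonic heart also expresses, was the 1 detected, ahead of Myog and Myod1.

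Several imprinted genes use more than 1 promoter, and the allele used can depend on the promoter. The promoters of Grb10, Gnas and Mest are shown because transcript levels could be divided between their annotated starts, as described below. They are RefSeq windows on GRCm38.p6, 250 bases before to 50 after a start, read 5′ to 3′ on the strand of the gene. Capitals mark TGCCGC or its reverse complement GCGGCA, the hexamer bound by ZFP57, a zinc finger protein that keeps methylation at imprinting control regions. For Nnat, the exon is shown that separates its leading transcripts.

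Grb10 upstream start (chr11:12037371-12037670, minus strand): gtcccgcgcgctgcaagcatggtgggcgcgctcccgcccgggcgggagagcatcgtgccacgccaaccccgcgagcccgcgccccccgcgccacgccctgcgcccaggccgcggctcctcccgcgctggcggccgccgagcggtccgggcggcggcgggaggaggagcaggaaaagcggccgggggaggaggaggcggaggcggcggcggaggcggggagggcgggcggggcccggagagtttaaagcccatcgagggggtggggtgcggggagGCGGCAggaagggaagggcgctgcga
Grb10 downstream start (chr11:12027922-12028221, minus strand): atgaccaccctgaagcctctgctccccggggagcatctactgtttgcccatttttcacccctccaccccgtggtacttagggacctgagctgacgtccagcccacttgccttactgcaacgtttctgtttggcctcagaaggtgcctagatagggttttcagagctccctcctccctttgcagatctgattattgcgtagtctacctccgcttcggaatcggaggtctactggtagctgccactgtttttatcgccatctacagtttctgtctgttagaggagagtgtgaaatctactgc
Gnas upstream start (chr2:174284070-174284369, plus strand): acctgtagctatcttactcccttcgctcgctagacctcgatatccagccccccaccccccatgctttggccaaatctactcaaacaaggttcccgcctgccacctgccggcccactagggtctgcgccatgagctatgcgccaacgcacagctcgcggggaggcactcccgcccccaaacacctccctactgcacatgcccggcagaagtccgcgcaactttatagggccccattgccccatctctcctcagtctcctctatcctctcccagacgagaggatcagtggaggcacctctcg
Gnas downstream start (chr2:174329756-174330055, plus strand): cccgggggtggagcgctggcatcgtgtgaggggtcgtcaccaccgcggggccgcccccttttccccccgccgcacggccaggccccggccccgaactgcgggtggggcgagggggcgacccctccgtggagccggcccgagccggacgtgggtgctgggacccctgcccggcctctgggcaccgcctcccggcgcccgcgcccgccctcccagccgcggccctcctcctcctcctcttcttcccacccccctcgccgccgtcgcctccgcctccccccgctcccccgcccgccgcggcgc
Mest upstream start (chr6:30733256-30733555, plus strand): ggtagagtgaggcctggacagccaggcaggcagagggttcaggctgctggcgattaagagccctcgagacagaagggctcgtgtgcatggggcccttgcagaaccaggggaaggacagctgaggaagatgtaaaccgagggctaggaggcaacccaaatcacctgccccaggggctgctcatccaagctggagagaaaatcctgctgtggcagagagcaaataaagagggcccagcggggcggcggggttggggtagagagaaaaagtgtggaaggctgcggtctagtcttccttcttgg
Mest downstream start (chr6:30737803-30738102, plus strand): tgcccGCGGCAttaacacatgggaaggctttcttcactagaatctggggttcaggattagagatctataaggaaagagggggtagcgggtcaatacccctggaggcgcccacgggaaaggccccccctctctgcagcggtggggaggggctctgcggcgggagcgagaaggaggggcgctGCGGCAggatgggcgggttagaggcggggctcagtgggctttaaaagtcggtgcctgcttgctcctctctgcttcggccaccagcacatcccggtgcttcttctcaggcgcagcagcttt
Nnat exon (GRCm38, chr2:157561213-157561293, plus strand): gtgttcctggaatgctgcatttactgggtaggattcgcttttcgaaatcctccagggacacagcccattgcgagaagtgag

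The upstream Grb10 window holds 45 CpG dinucleotides and 1 hexamer, and the downstream one 9 CpGs and no hexamer. The upstream Gnas window holds 16 CpGs and the downstream one 40, and neither holds the hexamer. In Mest, the upstream window holds 8 CpGs and no hexamer, and the downstream one 17 CpGs and 2 hexamers. Over all 32851 windows of the table the median was 7 CpGs, and 11.6% held the hexamer. The 28 imprinted genes with an entry had 43 windows, with a median of 11 CpGs, and 20.9% of them held the hexamer. Some of these windows repeat a sequence: Snrpn and Snurf have the same window with the hexamer, and 2 Mest windows with it overlap almost wholly. The hexamer itself contains a CpG, and the shares were not adjusted for CpG content. A match is a description of the letters and not a bound site.

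Imprinted genes were for the most part expressed in the heart. With detection set at 1 TPM or more in each library, 27 of the 32 genes were detected (84.4%), against 14246 of 55536 annotated genes (25.7%) and 12468 of 22028 protein-coding genes (56.6%). The median over all 32 was 37.8 ± 1.24 TPM. Among the 27 detected it was 46.0 ± 1.79 TPM, beside 16.0 ± 0.202 TPM over all detected genes. These figures describe a chosen list and were not tested.

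The levels spanned a wide range. Of the 32 genes, 9 averaged at least 100 TPM, 11 lay between 10 and 100 TPM, and 7 were detected below 10 TPM. Magel2, Slc22a18, Rtl1, Ascl2 and Dio3 were below 1 TPM in both libraries. Together the genes held 1.14% of gene counts in replicate 1 (exact Clopper-Pearson 95% interval 1.135 to 1.143%) and 1.17% in replicate 2 (1.166 to 1.174%), intervals that cover counting error only. Mest, Grb10 and Gnas alone held 73.2 ± 0.179% of those counts.

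**Figure D1:**
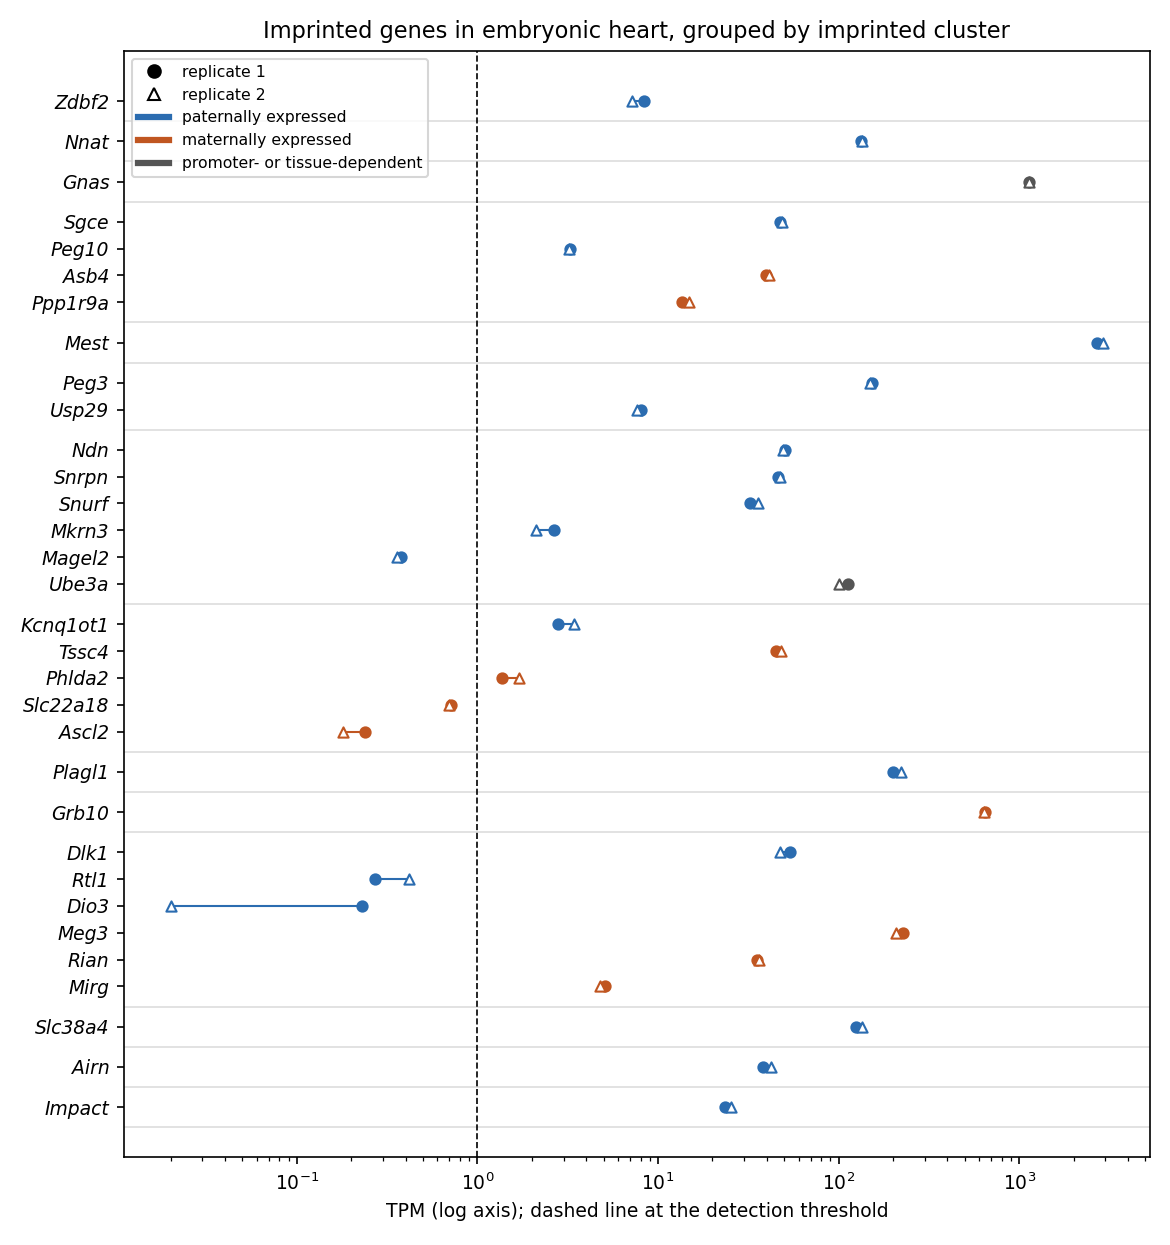
Level of each of the 32 imprinted genes in TPM on a log axis, replicate 1 as filled circles and replicate 2 as open triangles, grouped by imprinted cluster from chromosome 1 at the top to chromosome 18 at the bottom. Mest at 2797 TPM stands highest, and 5 genes lie left of the dashed line at 1 TPM.

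The order of the mean levels was set by clear steps at the top. Mest stood first at 2797 ± 165 TPM, then Gnas at 1130 ± 3.60 and Grb10 at 643 ± 9.47. After them came Meg3 at 217 ± 12.0 and Plagl1 at 212 ± 15.5, whose libraries overlapped. Peg3 followed at 151 ± 2.63 TPM. Of the 31 pairs of neighbours in the whole order, 10 overlapped between libraries, among them Nnat with Slc38a4, Dlk1 with Ndn, Snrpn with Tssc4, Asb4 with Airn and Usp29 with Zdbf2.

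The 20 paternally expressed genes had a median of 37.1 ± 2.58 TPM, with 17 detected. The 10 maternally expressed genes had a median of 25.0 ± 0.682 TPM, with 8 detected. Summed levels were 3742 ± 188 TPM for the paternally expressed genes, of which Mest gave the greater part, and 1005 ± 16.7 TPM for the maternally expressed genes, of which Grb10 did. These sums depend on which genes were listed, and leave out highly expressed imprinted genes given below, such as Igf2, Cdkn1c and H19.

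Among paternally expressed genes that stand alone in the list, Mest led. It encodes a member of the α/β-hydrolase family first described in mesoderm (chr6:30723547-30748465), and measured 2681 TPM in replicate 1 and 2913 TPM in replicate 2, rank 29 of all 14246 detected genes. Plagl1, a zinc finger transcription factor that regulates other imprinted genes (chr10:13060504-13131694), measured 201 TPM in replicate 1 and 223 TPM in replicate 2. In both genes replicate 1 was the lower library.

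Nnat, which encodes neuronatin, a small membrane protein of the endoplasmic reticulum (chr2:157560078-157562522), measured 132 TPM in replicate 1 and 134 TPM in replicate 2. Slc38a4, an amino acid transporter (chr15:96994820-97055956), measured 125 TPM in replicate 1 and 135 TPM in replicate 2. Airn, the non-coding RNA that silences Igf2r on the paternal chromosome (chr17:12741311-12860136), measured 38.3 TPM in replicate 1 and 42.0 TPM in replicate 2. These genes were each expressed above the median of the list, and Airn was lower than Igf2r by a log2 ratio of -2.55 ± 0.04.

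Impact, an inhibitor of the amino acid sensor kinase GCN2 (chr18:12955852-12992950), measured 23.4 TPM in replicate 1 and 25.3 TPM in replicate 2. Zdbf2, which encodes a zinc finger protein (chr1:63273265-63314576), was the lowest of these single genes, with 8.41 TPM in replicate 1 and 7.15 TPM in replicate 2.

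Grb10, an adaptor protein that dampens insulin and insulin-like growth factor signalling, is maternally expressed in most tissues (chr11:11930508-12038683). It measured 650 TPM in replicate 1 and 636 TPM in replicate 2. Grb10 was the highest of the 10 listed maternally expressed genes and rank 185 of all detected genes. Gnas encodes the stimulatory G protein subunit Gsα and, from upstream promoters, other proteins (chr2:174284320-174346744). Over all transcripts Gnas measured 1132 TPM in replicate 1 and 1127 TPM in replicate 2, the closest agreement among the 3 highest genes.

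In the Peg10 and Sgce cluster on chromosome 6 (chr6:4674350-5433022) all 4 genes were detected. The paternally expressed genes were Sgce, which encodes ε-sarcoglycan of the muscle membrane complex, and Peg10, derived from a retrotransposon and needed for the placenta. Sgce measured 47.4 TPM in replicate 1 and 48.4 TPM in replicate 2. Peg10 measured 3.25 TPM in replicate 1 and 3.23 TPM in replicate 2. Their annotated starts face away from each other across a gap of 98 bases, and Peg10 was lower than Sgce by a log2 ratio of -3.85 ± 0.03 (TPM with 0.1 added to each gene).

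The maternally expressed genes of that cluster were Asb4, which encodes a substrate adaptor of a ubiquitin ligase, and Ppp1r9a, which encodes the actin-binding protein neurabin. Asb4 measured 39.5 TPM in replicate 1 and 41.0 TPM in replicate 2. Ppp1r9a measured 13.6 TPM in replicate 1 and 14.8 TPM in replicate 2. Asb4 was higher by a log2 ratio of 1.50 ± 0.04.

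The Peg3 cluster on proximal chromosome 7 (chr7:6703892-6967219) also holds a head-to-head pair. Peg3, a zinc finger protein, measured 153 TPM in replicate 1 and 149 TPM in replicate 2. Usp29, named as a ubiquitin-specific peptidase, lies across a gap of 146 bases on the other strand and measured 8.09 TPM in replicate 1 and 7.66 TPM in replicate 2. Peg3 was higher by a log2 ratio of 4.24 ± 0.03. The level of Usp29 came mostly from models that are not protein-coding, with 46.6 ± 5.26% of its TPM on retained-intron models, 47.0 ± 3.35% on processed transcripts and 6.44 ± 1.91% (0.51 ± 0.17 TPM) on protein-coding models.

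The Snrpn and Ndn cluster on central chromosome 7 (chr7:59228750-62420139) is the counterpart of the human Prader-Willi and Angelman region. Of its 5 paternally expressed genes, 4 were detected. Ndn, which encodes the growth suppressor necdin of the MAGE family, measured 50.3 TPM in replicate 1 and 49.1 TPM in replicate 2. Snrpn, which encodes the SmN protein of the spliceosome, measured 45.9 TPM in replicate 1 and 47.3 TPM in replicate 2. The log2 ratio of Snrpn to Ndn was -0.09 ± 0.06, a value that depended on the annotation and was -1.30 with the older release described below.

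The neighbours of Ndn were far lower. Mkrn3, a ring finger protein known as a brake on puberty, measured 2.67 TPM in replicate 1 and 2.11 TPM in replicate 2, and Ndn exceeded it by a log2 ratio of 4.33 ± 0.20. Magel2, another MAGE gene, measured 0.38 TPM in replicate 1 and 0.36 TPM in replicate 2, on 43 counts in replicate 1 and 36 counts in replicate 2. Ndn exceeded Magel2 by 6.73 ± 0.02. That SD is smaller than counting error, as the 95% interval of Magel2 between libraries was -0.53 to 0.82 (log2). With the older release the ratio of Ndn was 5.54 to Mkrn3 and 7.94 to Magel2. With 1 added to TPM these ratios were 3.91 and 5.21. In whole tissue, fewer cells that express a gene and less RNA in each cell cannot be told apart.

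Snurf shares its messenger RNA with Snrpn, and its annotated model of 216 bases lies wholly within exons of Snrpn. It measured 32.2 TPM in replicate 1 and 35.9 TPM in replicate 2, resting on 93.0 counts in replicate 1 and 93.6 counts in replicate 2 and an effective length of 117 bases. The division of reads between these genes is uncertain. On counts not divided by length the log2 ratio of Snrpn to Snurf was 4.42, whereas on TPM it was 0.45 ± 0.08.

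Ube3a encodes the ubiquitin ligase lost in Angelman syndrome and is imprinted in neurons, whereas other tissues express both alleles. It measured 112 TPM in replicate 1 and 101 TPM in replicate 2, and Snrpn was lower than Ube3a by a log2 ratio of -1.19 ± 0.14. That direction depended on the annotation, as described below. Snhg14, the antisense RNA that overlaps Ube3a, measured 3.37 ± 0.06 TPM and shares 1803 exonic bases with it.

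In the Kcnq1 cluster on distal chromosome 7 (chr7:142966829-143503150) the 5 listed genes had a median of 1.53 ± 0.24 TPM, and 3 were detected. Imprinted genes outside the list, such as Cdkn1c at 1004 ± 71.4 TPM, are given further below and do not enter these figures. The paternally expressed RNA Kcnq1ot1, which silences the cluster in cis, measured 2.78 TPM in replicate 1 and 3.41 TPM in replicate 2. This low level per length goes with many reads, 6375 counts in replicate 1 and 7068 counts in replicate 2, because its 1 model is 93092 bases long. Kcnq1, the potassium channel gene it lies within on the opposite strand, averaged 11.2 ± 1.56 TPM. If strand was not used in counting, reads of unspliced Kcnq1 RNA would be counted as Kcnq1ot1. Kcnq1ot1 was lower than Kcnq1 by a log2 ratio of -1.82 ± 0.001 on TPM, and higher by 3.34 on counts not divided by length.

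Of the 4 maternally expressed genes listed there, 2 were detected. Tssc4, a factor of spliceosome assembly, measured 44.7 TPM in replicate 1 and 48.1 TPM in replicate 2. Phlda2, a pleckstrin-homology protein that restrains placental growth, measured 1.36 TPM in replicate 1 and 1.70 TPM in replicate 2. These values of Phlda2 rest on 22 counts in replicate 1 and 25 counts in replicate 2.

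The remaining listed maternally expressed genes of the cluster were under the threshold. Slc22a18, a member of a family of organic cation transporters, measured 0.71 TPM in replicate 1 and 0.70 TPM in replicate 2, below Tssc4 by a log2 ratio of -5.85 ± 0.09. Ascl2, a transcription factor of trophoblast, measured 0.24 TPM in replicate 1 and 0.18 TPM in replicate 2, on 9 counts in replicate 1 and 6 counts in replicate 2. Phlda2 exceeded Ascl2 by 2.39 ± 0.41 on the log2 scale and was below Kcnq1ot1 by a log2 ratio of -0.97 ± 0.01.

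Among the listed genes, the Dlk1 and Dio3 cluster on chromosome 12 (chr12:109452823-110281097) had the widest span of levels. Its means ran from 217 TPM for Meg3 to 0.13 TPM for Dio3. Its 3 maternally expressed RNAs are non-coding and were all detected. Meg3 measured 226 TPM in replicate 1 and 209 TPM in replicate 2. Rian, which holds 13 annotated snoRNA genes and 4 microRNA genes, measured 35.5 TPM in replicate 1 and 36.3 TPM in replicate 2.

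Mirg, with 14 annotated microRNA genes, measured 5.08 TPM in replicate 1 and 4.79 TPM in replicate 2. The RNAs thus declined in their order along the chromosome. Meg3 exceeded Rian by a log2 ratio of 2.59 ± 0.10, and Rian exceeded Mirg by 2.84 ± 0.08. The libraries were primed on poly(A) tails and do not report on the small RNAs themselves.

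Of the 3 paternally expressed genes of the cluster, Dlk1 alone was detected. It encodes a transmembrane protein of the Notch ligand family and measured 54.0 TPM in replicate 1 and 47.6 TPM in replicate 2. Rtl1, a retrotransposon-derived gene needed in fetal capillaries of the placenta, measured 0.27 TPM in replicate 1 and 0.42 TPM in replicate 2, on 41 counts in replicate 1 and 58 counts in replicate 2. Dio3, the deiodinase that inactivates thyroid hormone, measured 0.23 TPM in replicate 1 and 0.02 TPM in replicate 2.

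Dio3 rests on 11 counts in replicate 1 and 1 count in replicate 2, too few for the test between libraries. Meg3 exceeded Dlk1 by a log2 ratio of 2.10 ± 0.05, and Dlk1 exceeded Rtl1 by 6.85 ± 0.48 and Dio3 by 8.00 ± 0.90. Ratios against genes this low depend on the amount added, and with 1 added the last was 5.53. Across the 18 pairs of genes that were set side by side, the first gene was the higher one in both libraries in 11.

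**Figure D2:**
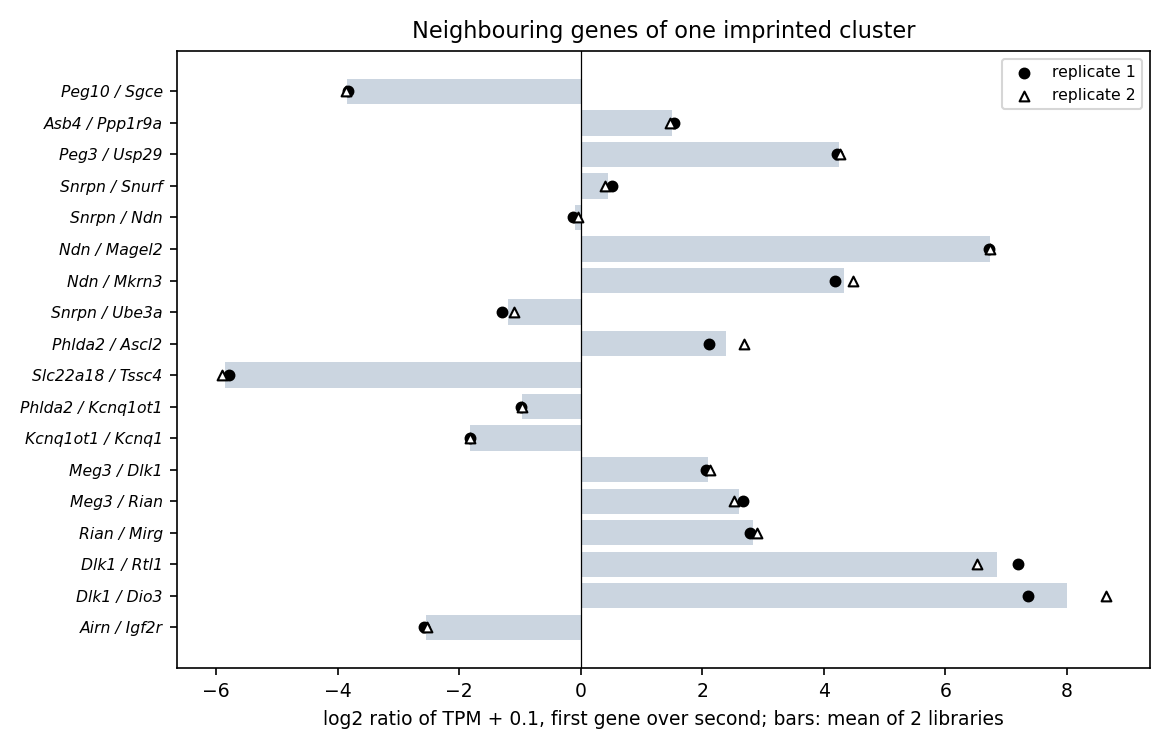
Log2 ratio of TPM + 0.1 for 18 pairs of genes of 1 imprinted cluster, the first gene over the second, with the mean of both libraries as a bar, replicate 1 as filled circles and replicate 2 as open triangles. The points of both libraries lie close together for most pairs, from -5.85 for Slc22a18 over Tssc4 to 8.00 for Dlk1 over Dio3, which also shows the widest gap between libraries.

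Transcript TPM was next divided between annotated starts, since promoter choice bears on which allele is known to be used. Starts within 500 bases were joined into 1 group, a rule set after the tables had been seen. In Gnas, 98.7 ± 0.198% of TPM came from the group of Gsα starts (174330006 to 174330287), the one that most tissues express from both alleles. The group around exon 1A, known to be paternally expressed, held 0.655 ± 0.129%, and the most upstream start, that of the maternally expressed Nesp transcript, 0.101 ± 0.0109%. Of the Gnas windows shown, the downstream one thus lies at the start group with most of the TPM. These shares are estimates that divide reads shared by transcripts, and no reads were counted over the windows.

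In Grb10 the order of use was the reverse of that in Gnas. The upstream start (annotated at 12037401), which most tissues use from the maternal allele, held 96.5 ± 1.30% of TPM, whereas the start at 12027971 held 2.23 ± 0.782%. Another downstream group (12026324 to 12026732) held 0.711 ± 0.419%. Paternal expression of Grb10 from downstream promoters is known from neurons.

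Mest drew 98.8 ± 0.0530% of its TPM from 30738050 to 30738055, the downstream window shown, and 0.0135 ± 0.00957% from the starts of the upstream window. Plagl1 drew 98.1 ± 0.599% from its leading group and Peg3 100% from its own. Slc38a4 divided more, with 90.3 ± 1.25% at 97055956 and 8.73 ± 1.13% at 97019951 to 97020322. Meg3 held 73.4 ± 4.31% in its leading group and 15.7 ± 1.12% in a group further downstream.

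**Figure D3:**
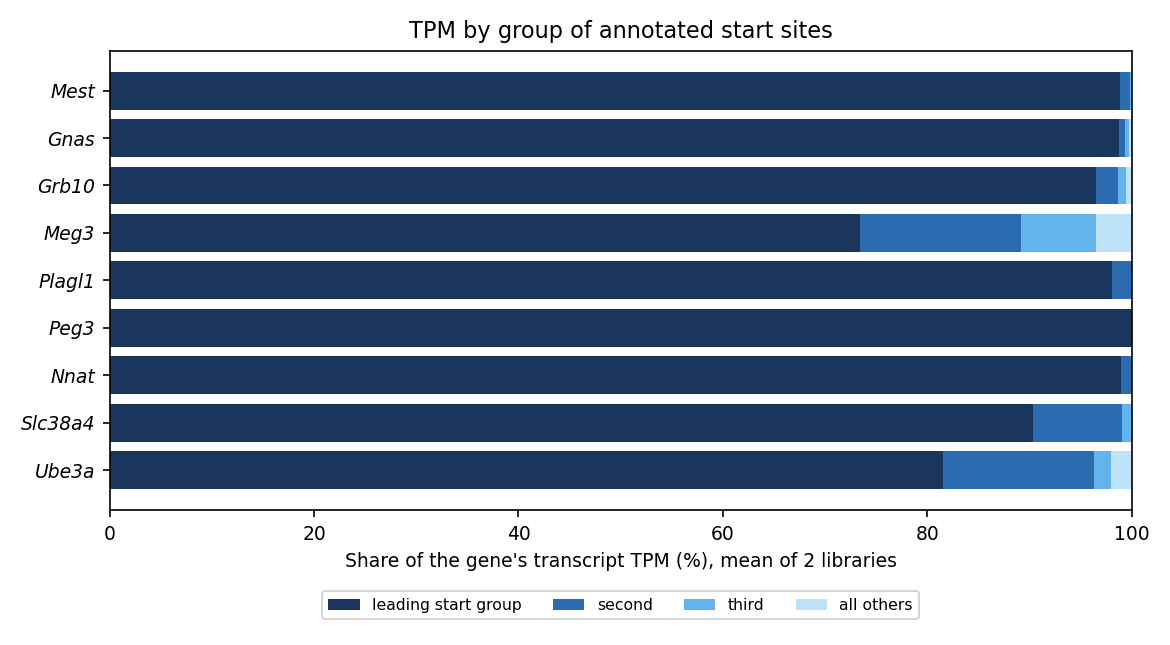
Share of each gene's transcript TPM by group of annotated start sites, mean of both libraries, for the 9 imprinted genes that average at least 100 TPM. The leading group holds over 90% in every gene shown but Meg3 at 73.4% and Ube3a at 81.6%.

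The transcript holding the greatest share of each gene's TPM was then compared over the 20 imprinted genes with at least 2 annotated transcripts and a mean of at least 5 TPM. Its median share was 67.4 ± 1.32%, beside 68.0 ± 0.403% over 9700 such genes of the whole table. The share was below 50% in 5 of the imprinted genes and at least 90% in 4. Transcript estimates divide shared reads and were not tested.

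Nnat expressed both of its known forms. Nnat-202 measured 85.6 TPM in replicate 1 and 84.4 TPM in replicate 2, and Nnat-205 measured 30.3 TPM in replicate 1 and 34.9 TPM in replicate 2. They differ by the 81-base exon shown above, which lies within the coding sequence between the outer exons and is present in the form known as α and absent from β. The longer form held 63.8 ± 1.40% of TPM and the shorter one 24.4 ± 2.15%.

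In Peg3, 23.5 ± 0.739% of TPM was on a model annotated for nonsense-mediated decay and 73.2 ± 0.462% on the protein-coding model. Tssc4 held 25.3 ± 4.18% on a retained-intron model. In Zdbf2 a model of 611 bases held 69.1 ± 4.91% and the full-length model of 12629 bases 30.9 ± 4.91%. In Ube3a the leading transcript, a model of 616 bases, held 25.6 ± 1.41%. The tables used so far rest on the M21 annotation, and with the older M4 release the leading share differed in several genes. In Ube3a it was 25.6% with M21 and 100% with M4, in Usp29 43.5% with M21 and 100% with M4, in Impact 82.8% with M21 and 100% with M4, and in Tssc4 27.8% with M21 and 41.7% with M4. A gene with a single annotated model has a share of 100% whatever the reads. The number of M4 models is not given here, so these values do not show a difference in transcript use.

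The level of 3 imprinted genes depended on the annotation release. Both M21 and the older M4 tables were deposited, and mean TPM in M21 over that in M4 differed by 0.5 or more on the log2 scale, up or down, in 3 of 32 genes (9.38%), against 1077 of 13633 detected genes found in both (7.90%). The median log2 ratio was -0.06 for the imprinted genes and -0.06 for all.

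Ndn averaged 49.7 ± 0.884 TPM with M21 and 120 ± 2.02 TPM with M4, a log2 ratio of -1.27. Its counts hardly moved, at 4461 with M21 and 4457 with M4 in replicate 1, but the effective length was 3595 bases with M21 and 1553 bases with M4. The M21 model starts at 62346569, which is 1708 bases upstream of the RefSeq start at 62348277.

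Ube3a averaged 107 ± 8.01 TPM with M21 and 43.4 ± 0.0636 TPM with M4, a log2 ratio of 1.30. Its effective length in replicate 1 was 2434 bases with M21 and 4998 bases with M4, and its counts were 6751 with M21 and 5128 with M4. With M4 the log2 ratio of Snrpn to Ube3a was 0.17, so its sign turned.

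Usp29 differed most, at 7.88 ± 0.304 TPM with M21 and 0.24 ± 0.06 TPM with M4. With M21 it had 630 counts in replicate 1 and 561 counts in replicate 2, and with M4 it had 11 counts in replicate 1 and 15 counts in replicate 2, so it was detected under M21 alone. The log2 ratio of Peg3 to Usp29 was 8.87 with M4.

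**Figure D4:**
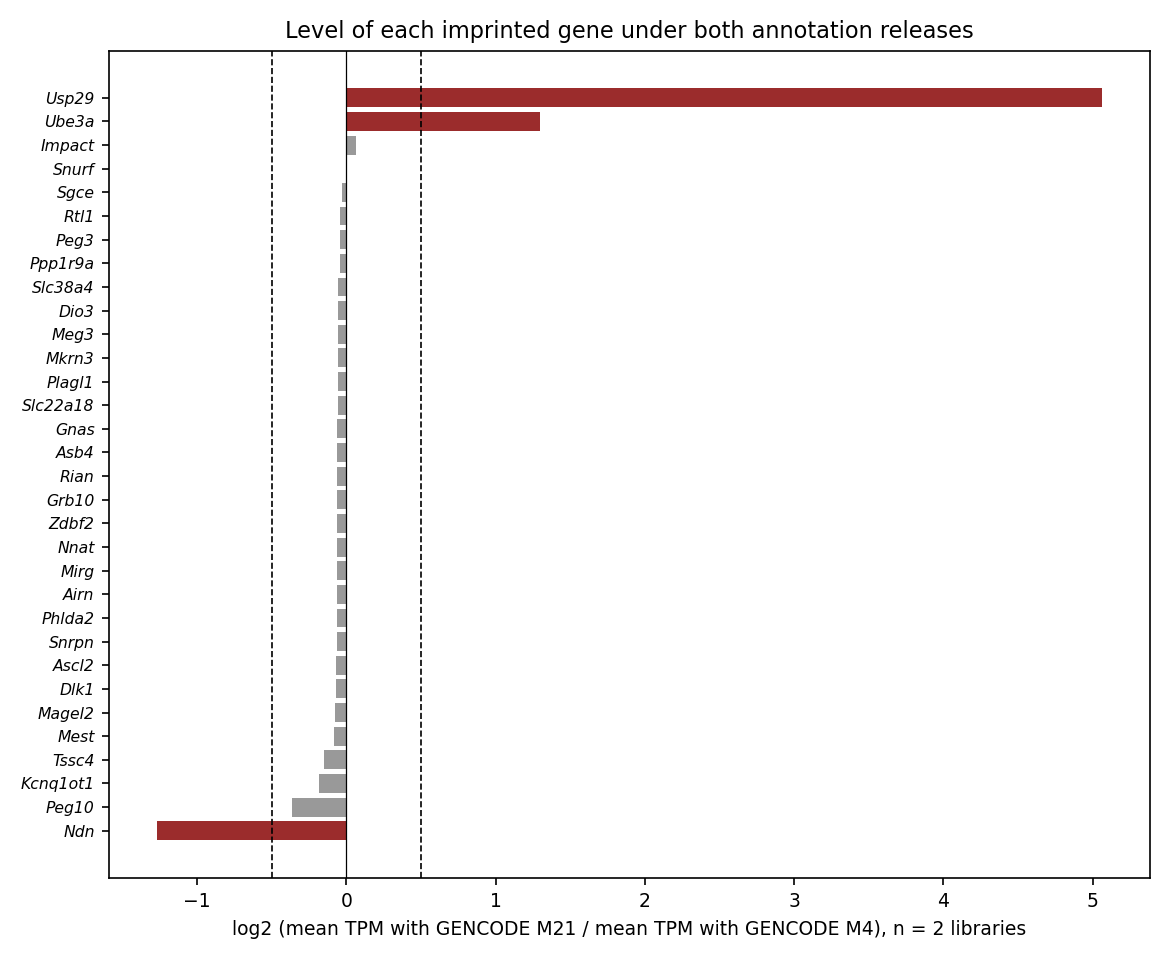
Log2 ratio of mean TPM with M21 over mean TPM with M4 for each imprinted gene, with dashed lines at ±0.5. Usp29 and Ube3a at 1.30 lie above the lines and Ndn at -1.27 below them, and the other genes lie between -0.36 for Peg10 and 0.07 for Impact.

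Genes on the opposite strand overlap several of the imprinted genes, and no source used here says whether the counting used strand. Copg2, at 23.6 ± 0.516 TPM, shares 912 exonic bases with Mest. Nespas, at 2.84 ± 0.799 TPM, shares 988 with Gnas, and Gm20721, at 7.31 ± 0.431 TPM, shares 1469. Trpm5, at 3.16 ± 0.276 TPM, shares 220 with Tssc4. Kcnq1 shares 121 with Kcnq1ot1, but it overlaps all 93092 bases of that model, for the most part with introns. Blcap at 28.4 ± 0.707 TPM and Igf2r at 236 ± 9.09 TPM overlap Nnat and Airn without a shared exonic base. Reads from shared bases cannot be told apart. If strand was not used, neither can reads of unspliced Kcnq1, Igf2r or Blcap RNA over exons of Kcnq1ot1, Airn or Nnat.

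The 2 libraries were compared gene by gene with an exact conditional binomial test on TMM-scaled counts (two-sided, with Benjamini-Hochberg adjustment over the 17970 genes whose counts summed to 20 or more), which covers counting error and compares these libraries only. Of the imprinted genes 30 could be tested, all but Ascl2 and Dio3. A call needed an adjusted p under 0.05 and a change of 1 or more, up or down, on the log2 scale. No imprinted gene was called, against 1.57% of all tested genes, and 12 had an unadjusted p under 0.05, against 22.5%. By adjusted p alone 8 of the 30 passed, against 10.0% of all genes. The median summed count was 3439 for the imprinted genes and 1056 for all tested genes.

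Of those 8, 5 were higher in replicate 1, against 5.73% of all genes, and 3 were lower in replicate 1, against 4.28%. Dlk1 differed most among them, with a log2 ratio of replicate 1 over replicate 2 of 0.29 (95% interval 0.19 to 0.39, adjusted p = 8.03e-07, exact binomial test). Meg3, in the same cluster, was also higher in replicate 1, by 0.19 (0.14 to 0.23, adjusted p = 2.05e-13, exact binomial test). Peg3, Grb10 and Gnas were higher by 0.06, 0.05 and 0.04 on the log2 scale, and Gnas did not pass with scaling by total counts (0.03).

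The genes lower in replicate 1 were Kcnq1ot1, at a log2 ratio of -0.26 (-0.31 to -0.21, adjusted p = 2.17e-23, exact binomial test), Plagl1 at -0.12 and Mest at -0.09. Rtl1 had the greatest absolute log2 ratio of the tested genes, at -0.61 with an interval of -1.23 to -0.01, and did not pass (adjusted p = 0.205, exact binomial test). Of the 30 genes, 24 (80.0%) lay within 0.25 of an even ratio, against 76.0% of all tested genes. Where both libraries together gave 1000 counts or more, 20 of 22 imprinted genes did (90.9%), against 98.1% of 9140 genes. Of those 22 genes 8 passed the adjusted p, against 12.98% of the 9140.

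Of 8 hepatocyte markers 7 were called, against 1.57% of all tested genes, all higher in replicate 1. None was at 0, and Afp measured 97.5 TPM in replicate 1 and 18.1 TPM in replicate 2. Of 6 red cell markers 5 passed the adjusted p, against 10.0% of all genes, all higher in replicate 1. Of 8 heart muscle markers 6 passed, 3 higher and 3 lower in replicate 1, with Ttn at a log2 ratio of -0.28. No endothelial, neural, skeletal muscle or trophoblast marker that could be tested passed. The median summed count was 92709.5 for red cell and 238622 for heart muscle markers, against 1056 for all tested genes. Of 4 mesenchyme markers Col1a1, at a log2 ratio of 0.18, and Col3a1, at 0.07, passed and were higher in replicate 1, and Postn at -0.01 and Pdgfra at 0.04 did not pass. The part of these markers in the differences of imprinted genes was not tested.

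**Figure D5:**
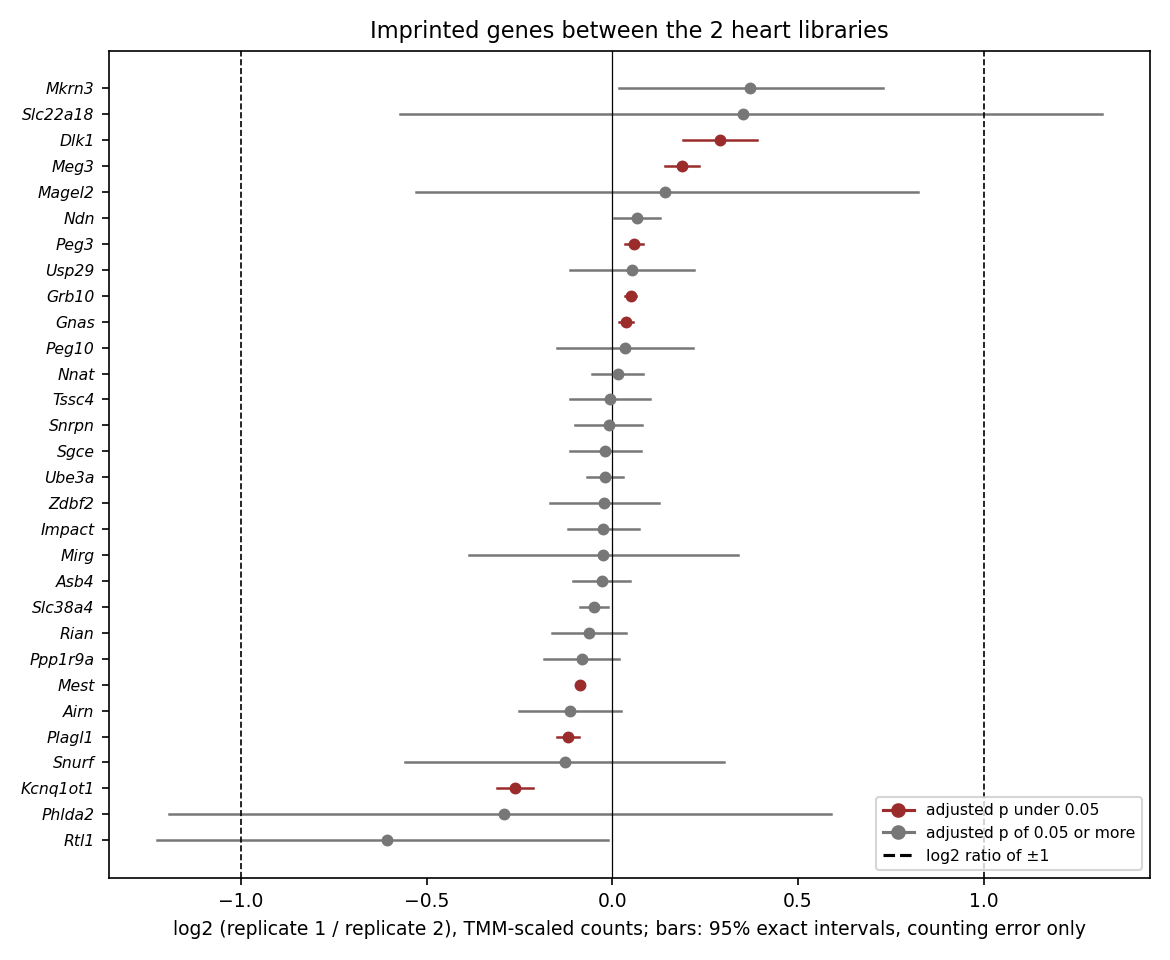
Log2 ratio of replicate 1 over replicate 2 for the 30 imprinted genes tested, from TMM-scaled counts, with exact 95% intervals for counting error. Genes with an adjusted p under 0.05 are in red, and no gene lies beyond the dashed lines at ±1.

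Other imprinted genes and the regulators of imprinting were read from lists that the 32 genes are not part of. Of 35 further imprinted genes 28 were detected. The highest were Igf2, the growth factor, at 1042 ± 17.9 TPM, Cdkn1c, a cell cycle inhibitor, at 1004 ± 71.4 TPM, and the non-coding RNA H19 at 730 ± 64.7 TPM. Cd81 at 552 ± 4.10 TPM and Commd1 at 239 ± 10.7 TPM followed. Only Mest and Gnas of the 32 genes lay above Igf2.

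Under 1 TPM in both libraries were Th, Rasgrf1, Calcr and Slc22a3, and Ins2, Kcnk9 and Slc22a2 had no count. None of the 31 that could be tested was called, and 6 passed the adjusted p, beside 1.57% called and 10.0% passed over all genes. Of these, 2 were higher in replicate 1, against 5.73% of all genes, and 4 were lower, against 4.28%. H19 at a log2 ratio of -0.16 and Cdkn1c at -0.10 were among those lower. At an unadjusted p under 0.05 there were 9, against 22.5% of all genes.

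Of 18 regulators 15 were detected. Trim28, the corepressor that ZFP57 recruits, was highest at 175 ± 4.20 TPM, followed by the DNA methyltransferase Dnmt3a at 110 ± 1.61 TPM. Uhrf1 at 70.1 ± 1.24 TPM and Dnmt1 at 67.7 ± 0.339 TPM, which maintain methylation through replication, came next, then the insulator protein Ctcf at 55.4 ± 5.22 TPM.

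The germ cell factors Dnmt3l, Ctcfl and Dppa3 were under 1 TPM in both libraries. Of 16 regulators tested none was called, against 1.57% of all genes, 3 passed the adjusted p, against 10.0%, and 6 had an unadjusted p under 0.05, against 22.5%. Trim28 passed the adjusted p and was higher in replicate 1 by 0.08 on the log2 scale, and Tet1 at -0.17 and Tet3 at -0.16, which oxidize methylcytosine, passed and were lower in replicate 1.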

How the data were processed

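PolyA RNA of embryonic mouse heart was read in 2 libraries. The text deposited beside the tables names annotation releases M21 and M4 on mm10. Per the file headers, the authors' tables hold expected counts (estimated reads, with reads of several places shared out), TPM (per effective length, scaled over every row, spike-ins included), the percent of a gene's TPM on each transcript, and a posterior SD of each count. TPM therefore moves with the length of the annotated models. Which aligner and counter were used, and whether strand was, is not given in the sources used here.

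Symbols, biotypes and coordinates (1-based, GRCm38) came from the M21 annotation by gene ID, and M4 rows were matched by the same ID. Promoters came from RefSeq on GRCm38.p6, in which 28 of 32 genes were found. The genes and lists were chosen with earlier results of these data known. All 32 genes are named. Of the lists of other imprinted genes and of regulators, the 5 highest, any called and any under 1 TPM in both libraries are named, with opposite-strand genes of at least 1 TPM. Of each marker list the 3 highest are named. Small RNA, pseudogene and unnamed opposite-strand models are not listed. Tet1, Tet3 and the trophoblast markers at 0 were named after their values were seen.

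Expected counts were rounded and scaled by TMM (edgeR 4.0.16), 0.5 was added to each scaled count in ratios, and the exact binomial test was run in SciPy 1.17.1 after being tested on simulated data. Size factors of DESeq2 1.42.0 were an alternative. Levels are means ± SD (n = 2) and shares of counts carry exact intervals. Reads without molecular identifiers are not independent molecules. Start groups were added after the tables had been seen.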

Additional observations from a re-analysis of the deposited data

How the results depend on the processing

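Detection held for 22 to 28 of 32 genes over thresholds of 5 to 0.5 TPM, and for 26 with M4 and 27 with posterior mean TPM or with either library alone. The median of all 32 genes was 39.4 TPM with M4 and 42.7 TPM when rescaled over nuclear genes, and without 1 replicate it was 36.9 to 38.6 TPM. For paternally expressed genes it was 41.9 TPM when rescaled and 35.3 to 38.9 TPM without 1 replicate. For maternally expressed genes it was 26.05 TPM with M4, 25.97 TPM with posterior means, 28.3 TPM when rescaled and 24.6 to 25.5 TPM without 1 replicate. No imprinted gene was called under any scaling or filter tried, and 8 passed by adjusted p alone. Over all genes 282 were called, 60 at a summed count of at least 100, where fewer genes are tested, and 1799 by adjusted p alone. The median share of the leading transcript was 69.2% at a mean of at least 20 TPM, and 66.5 to 68.4% without 1 replicate. The pair Snrpn over Ube3a turned to 0.17 with M4, and Kcnq1ot1 over Kcnq1 turned to 3.34 on counts. Of the ratios between libraries, Gnas no longer passed the adjusted p with scaling by total counts (0.03), and Slc38a4 passed with that scaling (-0.06) and with M4 (-0.05). Uncalled ratios changed sign in 4 cases, of Sgce, Usp29, Ube3a and Tssc4. Of single-gene levels 103 stayed within their SD and 57 moved beyond it, 26 of them by rescaling. The 103 include 32 for each replicate left out, which with 2 libraries cannot move beyond the SD. With M4 15 stayed and 17 moved, with posterior means 18 stayed and 14 moved, and by rescaling 6 stayed. Of the pair ratios 64 stayed within their SD, among them 18 for each replicate left out, which likewise could not move beyond it. A further 42 moved beyond their SD without a change of sign, 15 of them on counts and 12 with 1 added. The cause was not tested beyond the effective lengths given above. With M4 the share of the leading transcript moved beyond its SD in 9 of 20 genes. The share of the leading start group in Gnas, Grb10, Slc38a4 and Mest stayed within its SD at joins of 100 and 1000 bases. No paired analysis was possible because the design has 1 group. Genes whose counts summed to under 50, such as Phlda2 and Slc22a18, are limited by depth.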
